A study of Mus musculus with 8 samples.

Results

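The interferon-stimulated genes are the genes that a cell switches on when it senses interferon, and 39 of them, listed by symbol, were followed here through RNA sequencing of the mouse heart. All 39 were found among the 49315 genes of the count table, and all 39 passed the filter on low counts, as did 16180 genes in all. The 8 libraries came from hearts of C57BL/6 mice, an inbred laboratory strain, aged 8 weeks, 4 from females and 4 from males. No treatment or engineered allele is given for either sex, and the labels do not state which part of the heart was taken or that each library was a separate animal. The p-values therefore measure the spread between these libraries, which may be in part technical. The labelled tissue was matched by its markers: 7 cardiomyocyte genes summed to between 72270 and 80660 CPM (counts scaled to library size) over the libraries.

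Interferons are secreted signals of antiviral defence. Type I interferons act through a receptor whose kinases activate the complex ISGF3, of which STAT2 and IRF9 are parts. ISGF3 binds the interferon-stimulated response element (ISRE). Interferon gamma acts through the gamma-activated site (GAS) and through the factor IRF1. In the heart, this programme is best known from viral myocarditis, and a low level of it is present in uninfected tissue.

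Female libraries held 32746054 to 35467832 counts and male libraries 39612848 to 47097765, so every male library was deeper than every female one and depth cannot be told apart from sex. Some libraries stood apart in markers of other cells. Male replicate 1 held 192 CPM over 5 pan-leukocyte markers, against 66.7 to 82.6 in the other males and 69.6 to 88.9 in females. Male replicate 4 held 480 CPM over 6 atrial markers, against 2320 to 2740 in the other males and 2569 to 2801 in females. Female replicate 3 held 20.1 CPM over 3 lung markers, against 3.04 or less elsewhere, and 19.85 CPM of that was Scgb1a1. Sftpc and Sftpb were instead highest in female replicate 2, with 84 and 17 counts, against 1 and 8 in female replicate 3. White adipocyte markers separated the sexes, with sums of 69.8 to 129 CPM in females and 13.1 to 39.3 in males. In bulk tissue, fewer cells of a type and less RNA per cell cannot be told apart.

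The promoters of these genes were searched for the sequences through which the pathway acts. RefSeq (GRCm38.p6) gave a promoter, 250 bases before to 50 after the start site, for 30 of the 39 genes. The core of the ISRE was searched as GAAANNGAAA on either strand, and the core of the GAS as TTCNNNGAA, which reads the same on both strands. The letters of the ISRE and GAS cores can overlap by a few bases where they adjoin. An ISRE core was present in 17 of the 30 promoters (56.7%), compared with 3.99% of 27025 genes with a promoter in the same table. A GAS core was present in 8 of 30 (26.7%), compared with 9.55% of those genes. These matches describe letters only. No core of either kind was found for Ifi27 or Ifi27l2a, the genes called between the sexes below. Genes without a promoter in this source could not be searched. The stretch from 150 bases before to 20 after the start site is shown for the pair of ISRE-bearing genes with the smallest p between the sexes, Ddx58 and Ifit1, and for the pair with the highest level, B2m and Bst2. Capitals mark the ISRE cores, and each sequence is read 5′ to 3′ on the strand of its gene.
Ddx58 (chr4:40239806-40239975, minus strand): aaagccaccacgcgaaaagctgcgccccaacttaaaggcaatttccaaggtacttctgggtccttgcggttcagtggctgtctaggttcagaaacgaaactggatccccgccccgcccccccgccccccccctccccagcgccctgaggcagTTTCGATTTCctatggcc
Ifit1 (chr19:34640739-34640908, plus strand): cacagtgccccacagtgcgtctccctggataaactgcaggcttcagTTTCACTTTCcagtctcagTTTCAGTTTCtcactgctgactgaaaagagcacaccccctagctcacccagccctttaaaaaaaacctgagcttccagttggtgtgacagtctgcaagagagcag
B2m (chr2:122147537-122147706, plus strand): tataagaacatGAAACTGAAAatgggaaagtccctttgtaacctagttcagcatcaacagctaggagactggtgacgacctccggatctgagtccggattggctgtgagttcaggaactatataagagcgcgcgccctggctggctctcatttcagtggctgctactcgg
Bst2 (chr8:71537453-71537622, minus strand): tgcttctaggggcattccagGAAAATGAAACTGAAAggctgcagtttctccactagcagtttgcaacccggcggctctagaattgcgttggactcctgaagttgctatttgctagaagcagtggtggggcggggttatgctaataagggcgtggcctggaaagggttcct

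In Ifit1 the cores began at positions -104 and -85 from the start site, and in B2m the core began at -139. The capitals of Bst2 hold a pair of overlapping cores that began at -130 and -124. The Ddx58 core began at position 2, just inside the transcribed sequence. Of the 9 GTPase and antigen processing genes, whose libraries are described further on, 6 carried an ISRE core (66.7%), and Psmb8, Psmb9 and Tap1 did not. Each of the following is a core with 5 bases on either side, from the plus strand genes Gbp2, Gbp3, Gbp7 and Igtp, and last the GAS core of Irf1. A further ISRE core of Gbp3, at -39, overlaps the core shown, and the rest of its bases are not in capitals.
Gbp2, ISRE core at -59 (chr3:142620599-142620618): tttagTTTCACTTTCactgt
Gbp3, ISRE core at -45 (chr3:142559994-142560013): cacagTTTCAGTTTCtattt
Gbp7, ISRE core at -53 (chr3:142530278-142530297): tgcagTTTCAGTTTCagttc
Igtp, ISRE core at -34 (chr11:58199517-58199536): gaactGAAACTGAAAgctgt
Irf1, GAS core at -90 (chr11:53769919-53769937): ctgatTTCCCCGAAatgat

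Few of these genes were called between male and female hearts, and their share of 5.13% was near the 3.79% of all genes tested. Ifi27 and Ifi27l2a, neighbours on chromosome 12, were the 2 of 39 called, and both were lower in males (edgeR quasi-likelihood test, with p adjusted by Benjamini-Hochberg across all 16180 tested genes and called below 0.05). Of all genes tested, 3.79% were called, 1.76% as lower and 2.03% as higher in males. None of the 39 was called higher in males, by edgeR, DESeq2 or limma-voom. At an unadjusted p below 0.05 there were 6 of the 39 (15.4%), 5 lower and 1 higher in males, where 19.5% of all genes passed, 9.39% lower and 10.1% higher. The log2 fold changes, male minus female, ran from -0.63 to 0.29, with 17 above and 22 below 0 and a median of -0.02, next to -0.001 over all genes tested. With 1 library left out in turn, that median ran from -0.146 to 0.062, so its sign depended on the library. The 4 values of each sex did not overlap in 3 of the 39, all lower in males, where 12.0% of all genes did, 5.66% lower and 6.39% higher in males.

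**Figure D1:**
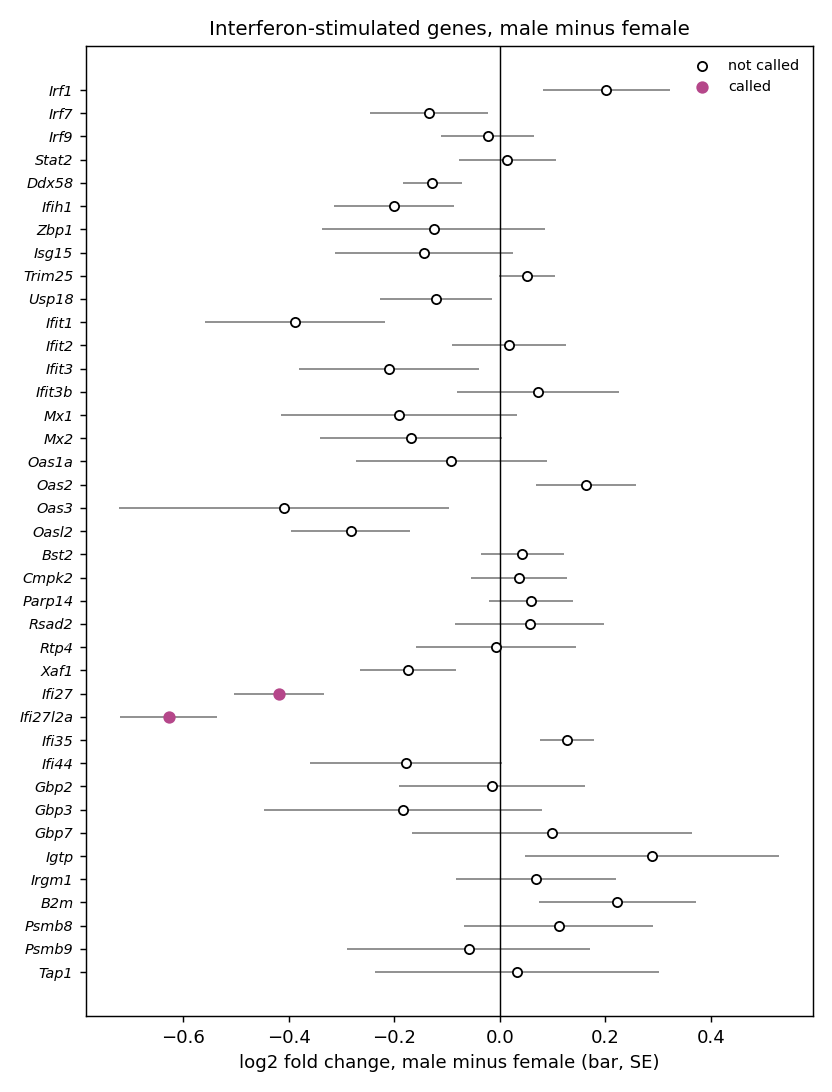
Log2 fold change, male minus female, of each of the 39 genes with its standard error as a bar, 4 libraries a sex. Filled points mark Ifi27 (-0.42) and Ifi27l2a (-0.63), the genes called at an adjusted p below 0.05, and open points the other 37.

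Ifi27l2a, which encodes a small protein of the interferon-inducible ISG12 family (chromosome 12, 103442167 to 103443680), had the larger difference. It stood at 35.7, 27.1, 31.7 and 29.5 CPM in female replicates 1 to 4 and at 19.8, 22.2, 17.1 and 21.1 CPM in male replicates 1 to 4. Every female library was above every male one. The means were 31.0 ± 3.63 and 20.1 ± 2.21 CPM (SD, n = 4), a log2 fold change of -0.63 (SE 0.09, edgeR adjusted p = 0.0046), or 1.54-fold higher in females. The call held in each of 18 other settings of scaling, filter, test, depth and libraries, with adjusted p (edgeR, DESeq2 or limma) between 7.55e-09 and 0.0488.

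Ifi27, of the same family (chromosome 12, 103434211 to 103440239), stood at 30.2, 38.8, 37.3 and 29.7 CPM in females and at 26.02, 26.9, 23.6 and 25.4 CPM in males. Again the sexes did not overlap, but the lowest females were near the highest male. The means were 34.01 ± 4.73 and 25.5 ± 1.40 CPM, a log2 fold change of -0.42 (SE 0.09, edgeR adjusted p = 0.0215). The call held in 14 of those 18 settings, and was lost without female replicate 2 (edgeR adjusted p = 0.0519), without female replicate 3 (0.0608) and without male replicate 3 (0.0673), and in limma on log2 of the deposited signal plus 1 (limma adjusted p = 0.105).

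Of 8 other genes annotated within 100000 bases of the pair, 7 were tested and 0 were called by edgeR, none of them at an unadjusted p below 0.05. Over all genes tested 3.79% were called and 19.5% had an unadjusted p below 0.05. A count of 0 among 7 genes cannot be told apart from those shares. Ddx24, an RNA helicase gene 8343 bases away, was at 86.6 ± 2.96 CPM for the female libraries and 84.3 ± 4.01 for the male ones, a log2 fold change of -0.04 (SE 0.04). Asb2, an ubiquitin ligase subunit gene, had a log2 fold change of -0.01 (SE 0.06). Neighbours with few counts had larger and less certain values. Gm45777, with 90 counts in all, had 0.71 (SE 0.42), and 9330161L09Rik, with 95 counts, had -0.37 (SE 0.28).

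White adipocyte markers moved with the same contrast. All 6 were called lower in males, and their sum was 69.8, 113, 129 and 75.8 CPM in females and 18.1, 20.04, 13.1 and 39.3 in males. Within females, Ifi27 was high in replicates 2 and 3, as were the adipocyte markers, whereas Ifi27l2a was highest in replicate 1, where those markers were lowest. Within males the adipocyte sum was highest in replicate 4, and neither Ifi27 nor Ifi27l2a was. The adipocyte sum, Ifi27 and Ifi27l2a were all lowest in male replicate 3 (13.1, 23.6 and 17.1 CPM). The part of adipocytes in the result was not tested beyond the fit that follows. With the mean of these markers as a covariate, chosen after seeing the data, the log2 fold change of Ifi27 was -0.01 (edgeR adjusted p = 0.998) and that of Ifi27l2a was -0.55 (edgeR adjusted p = 0.545). The markers separate the sexes by themselves, so the 2 terms cannot be told apart in this fit. Fibroblast markers moved with the contrast too: all 6 had a negative log2 fold change, 1 was called (Lum, named after its values were seen, -0.66, edgeR adjusted p = 0.000285), and their sums of 881 to 895 CPM in females and 750.0 to 854 in males did not overlap. Their part in the result was not tested. Endothelial markers, 6 in number, overlapped between the sexes in their sum (816 to 940 and 858 to 953 CPM). Of these, 5 had a positive and 1 a negative log2 fold change. Tie1 was called higher in males (0.20, edgeR adjusted p = 0.0448). Without overlap but not called were Flt1, higher in males (0.175, edgeR adjusted p = 0.0769), and Kdr, lower (-0.26, edgeR adjusted p = 0.0618). These genes were named after their values were seen.

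**Figure D2:**
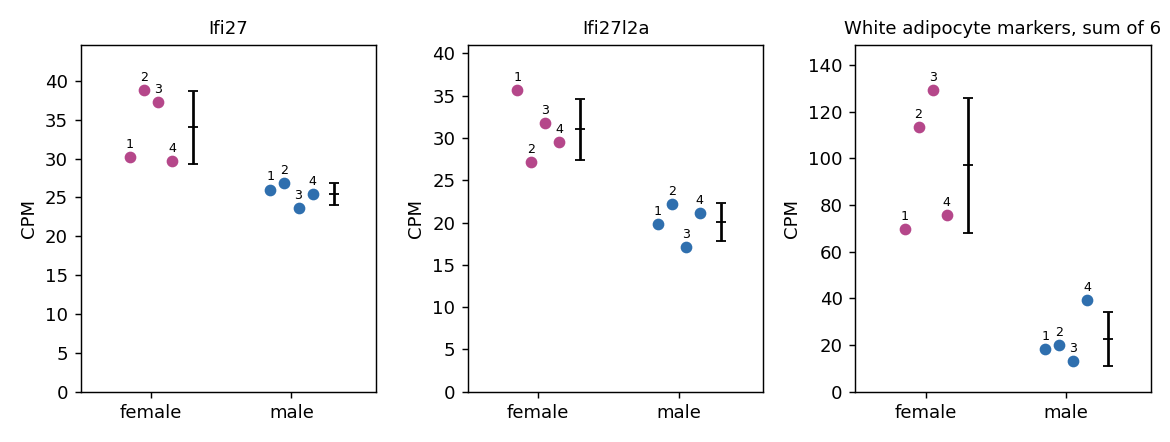
CPM of Ifi27, of Ifi27l2a and of the sum of 6 white adipocyte markers in each library, points numbered by replicate, with the mean and SD of 4 libraries beside them. Females lie above males in all 3 panels, and male replicate 3 is the lowest male in each. The order of female replicates in the adipocyte sum (3, 2, 4, 1) differs from that in Ifi27l2a (1, 3, 4, 2).

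The remaining genes are given by role. Among the transcription factors (Irf1, Irf7, Irf9 and Stat2), 0 of 4 were called, with edgeR adjusted p from 0.388 to 0.957. Irf1, the factor of the interferon gamma arm, was the highest of them per length, at 6.77 RPKM, that is CPM per kilobase of exon. Its values were 24.8, 31.0, 22.9 and 21.3 CPM in females and 31.8, 25.2, 25.2 and 33.0 in males. Female replicate 2 and male replicates 1 and 4 were the high libraries, and the sexes overlapped (log2 fold change 0.20, SE 0.12). Irf9 and Stat2, parts of ISGF3, had log2 fold changes of -0.02 (SE 0.09) and 0.01 (SE 0.09). Irf7, which amplifies type I interferon production, had -0.13 (SE 0.11).

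Among the sensors of foreign nucleic acid, Ddx58, which encodes the viral RNA sensor RIG-I, was at 15.4, 14.9, 15.2 and 15.2 CPM in females and at 14.9, 14.0, 12.9 and 13.8 in males. The sexes met without overlap between female replicate 2 and male replicate 1. The means of 15.2 ± 0.209 and 13.9 ± 0.818 CPM gave a log2 fold change of -0.13 (SE 0.06) that was not called (edgeR adjusted p = 0.232). Ifih1, the RNA sensor MDA5, had a log2 fold change of -0.20 (SE 0.11), and Zbp1, a sensor of Z-form nucleic acid at a mean of 1.5 CPM, had -0.13 (SE 0.21). Neither was called.

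The ISG15 system attaches the ubiquitin-like protein ISG15 to other proteins. Isg15 itself was at 8.76, 6.75, 4.58 and 6.42 CPM in females and at 6.82, 5.86, 4.85 and 6.42 in males. Its highest and its lowest value were both in females, so the spread within that sex covered the males (log2 fold change -0.14, SE 0.17, edgeR adjusted p = 0.699). Usp18, which removes ISG15 and damps the type I receptor, had -0.12 (SE 0.11). Trim25, an ubiquitin ligase that acts on RIG-I, was among the steadiest of the 39, at 40.1 ± 2.23 and 41.6 ± 2.497 CPM.

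The IFIT proteins bind viral RNA. Ifit3, the highest of the 4 per length, was at 10.5, 11.3, 8.19 and 6.68 CPM in females and at 9.44, 7.41, 6.02 and 8.93 in males. Female replicates 1 and 2 were high and the sexes overlapped (log2 fold change -0.21, SE 0.17, edgeR adjusted p = 0.548). Ifit1 had a log2 fold change of -0.39 (SE 0.17) with an unadjusted p of 0.0437 and an adjusted p of 0.241 in edgeR. Ifit2 had 0.02 (SE 0.11) and Ifit3b 0.07 (SE 0.15). Ifit3 and Ifit3b share sequence: 51.2% of the 50-base windows of Ifit3 transcripts also occur in Ifit3b, so their counts are uncertain.

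Of the Mx and OAS enzymes, which block viral replication and make the activator of RNase L, 0 of 6 were called. Oas2 was at 13.3, 11.7, 10.4 and 13.1 CPM in females and at 12.3, 13.4, 12.8 and 15.7 in males, overlapping between the sexes (log2 fold change 0.16, SE 0.10, edgeR adjusted p = 0.379). Oasl2 was at 17.8, 18.8, 13.7 and 13.6 CPM in females and at 13.1, 13.3, 11.4 and 14.6 in males. Only male replicate 4 reached into the female range (log2 fold change -0.28, SE 0.11, edgeR adjusted p = 0.199). Mx1 had a mean of 0.879 CPM and Mx2 of 2.15 CPM, and the Mx1 gene of C57BL/6 is known to carry a deletion that leaves no working protein. Oas3 was the lowest of all 39 at 0.0734 RPKM. Oas1a shares 57.6% of its windows with Oas1g, so its log2 fold change of -0.09 (SE 0.18) is uncertain.

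The other effectors comprised Bst2, Cmpk2, Parp14, Rsad2, Rtp4 and Xaf1, of which 0 of 6 were called. Bst2, the tetherin that holds budding virus at the cell surface, was at 26.9, 27.1, 22.3 and 22.5 CPM in females and at 28.3, 24, 23.8 and 25.7 in males, fully overlapping (log2 fold change 0.04, SE 0.08, edgeR adjusted p = 0.815). Rsad2, the antiviral enzyme viperin, and Cmpk2, its neighbour that phosphorylates nucleotides, had log2 fold changes of 0.06 (SE 0.14) and 0.04 (SE 0.09). Xaf1 had the lowest p of the 6, with a log2 fold change of -0.17 (SE 0.09, edgeR adjusted p = 0.319). Parp14, an ADP-ribosyltransferase, had 0.06 (SE 0.08) and Rtp4 -0.01 (SE 0.15).

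In the IFI-named group, Ifi35 and Ifi44 stood beside the pair already described. Ifi35 was at 17.6, 18.1, 17.7 and 17.2 CPM in females and at 19.6, 20.1, 17.8 and 19.6 in males. Male replicate 3 alone fell within the female range, and the log2 fold change of 0.13 (SE 0.05) was not called (edgeR adjusted p = 0.197). Of its exon bases, 290 (16.8%) overlap Gm11626 on the opposite strand, a gene with 42 counts in all. Ifi44 had a log2 fold change of -0.18 (SE 0.18).

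The immunity-related GTPases (Igtp, Irgm1) and guanylate-binding proteins (Gbp2, Gbp3, Gbp7) belong to families that act in defence against intracellular pathogens and are classical targets of interferon gamma. None of the 5 was called between the sexes, and their libraries differed widely within each sex. Igtp, the highest per length, was at 16.7, 26.2, 14.5 and 14.1 CPM in females and at 28.0, 19.8, 12.8 and 26.6 in males (log2 fold change 0.29, SE 0.24, edgeR adjusted p = 0.557). Gbp3 was at 16.3, 25.4, 11.2 and 11.6 CPM in females and at 18.9, 10.8, 10.2 and 16.9 in males, 2.49 times higher in the highest library than in the lowest. Gbp7 was at 12.4, 23.1, 12.2 and 12.8 CPM in females and at 21.4, 11.5, 10.4 and 21.4 in males. In each of these genes female replicate 2 and male replicates 1 and 4 were the high libraries. Igtp shares 11.8% of its windows with Irgm2, whose exons also overlap it by 162 bases on the same strand.

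The antigen processing genes cut proteins in the immunoproteasome (Psmb8, Psmb9), carry peptides into the endoplasmic reticulum (Tap1) and form the invariant chain of class I molecules (B2m). B2m had the highest level per length of the 39, at 178 RPKM, ahead of Ifi27l2a at 55.2 and Bst2 at 27.8. It was at 140, 175, 126 and 123 CPM in females and at 204, 170, 117 and 169 in males, and the libraries of the sexes, with means of 141 ± 23.8 and 165 ± 35.8 CPM, overlapped (log2 fold change 0.22, SE 0.15, edgeR adjusted p = 0.448). Tap1 was at 15.4, 23.2, 12.0 and 11.5 CPM in females and at 21.7, 12.9, 9.16 and 19.8 in males, a ratio of 2.53 between the highest and the lowest library. Its log2 fold change of 0.03 (SE 0.27) was small beside that spread. Psmb9 followed the same order of libraries, at 9.33, 13.3, 8.10 and 7.10 CPM in females and at 12.0, 8.42, 5.48 and 10.5 in males. Psmb9 and Tap1 are neighbours that share 212 exon bases on opposite strands, and the strand setting of the counting is not given, so part of their counts may be common to both.

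Within each sex, the same libraries tended to hold the high and the low values of these genes. After the mean of each sex was taken off the log2 CPM, male replicate 3 held the lowest male value in 34 of the 39 genes (87.2%), where it did so in 22.2% of all genes tested. The highest male value was in replicate 1 for 18 genes and in replicate 4 for 17. Among females the highest value was in replicate 2 for 20 genes and in replicate 1 for 17, and the lowest in replicate 3 for 17 and in replicate 4 for 19. Over all genes tested, the shares of highest and of lowest values lay between 22.2% and 28.2% in every library. The summed CPM of the 39 genes was 705, 803, 624 and 611 in females and 791, 665, 559 and 760 in males. The means of 686 ± 88.5 and 694 ± 105 CPM differed by less than the spread within a sex. These counts are a description, since genes that share a library are not independent.

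**Figure D3:**
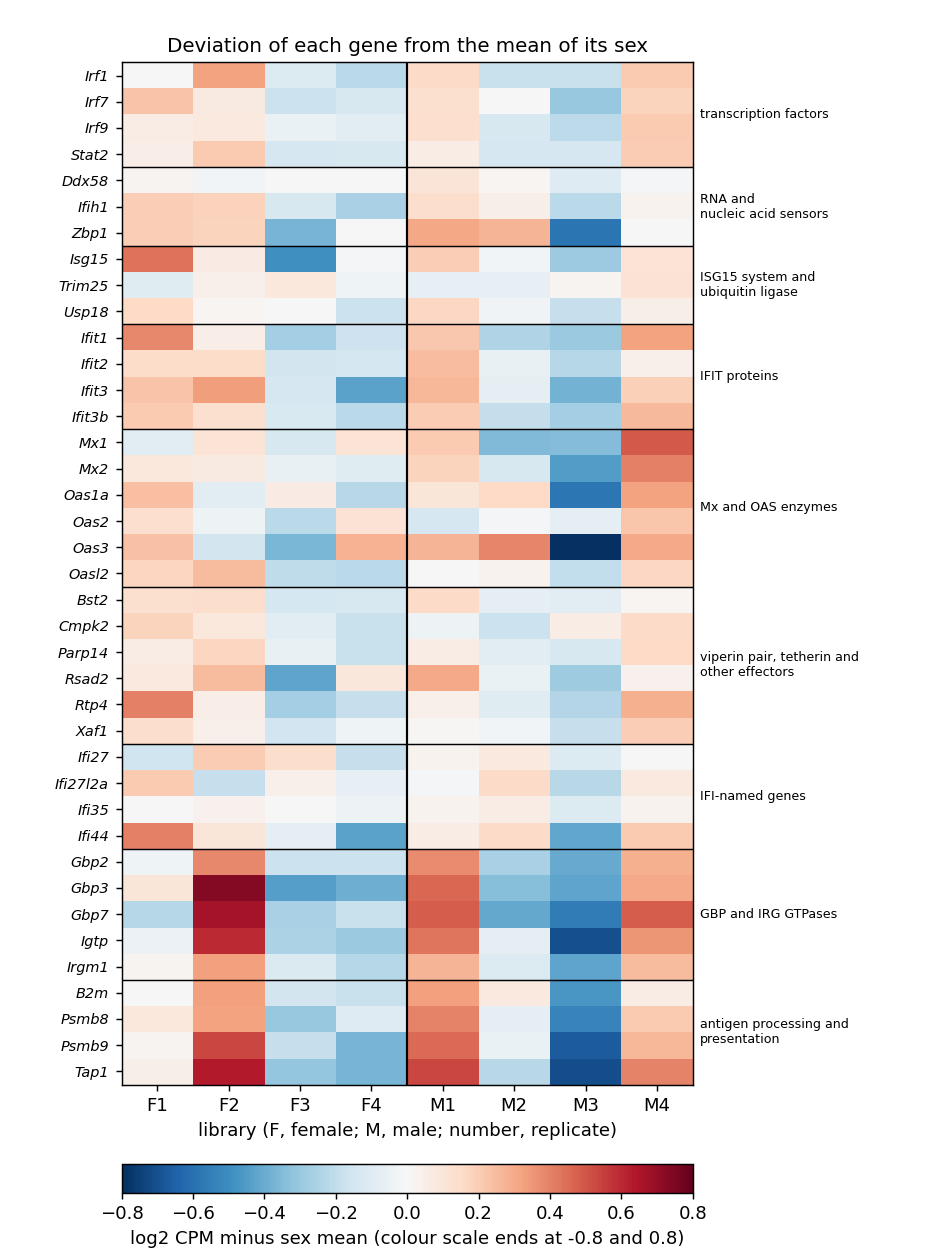
Log2 CPM of each of the 39 genes (rows, by role) in each library (columns; F, female; M, male) minus the mean of its sex, red above and blue below it, with the colour scale ending at -0.8 and 0.8. Columns F1, F2, M1 and M4 are above the mean in most rows. Columns F3, F4, M2 and M3 are below it in most rows, M3 in the largest number. F2 and M1 are reddest in the GTPase and antigen processing rows at the bottom. Oas3 in M3 lies beyond the end of the scale.

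By role, the GTPases and the antigen processing genes had the largest swings, with a median SD of log2 CPM within a sex of 0.469 and 0.393. Single genes of other roles also swung widely, as Oas3 did (0.504), and Irgm1 (0.289) and B2m (0.288) swung less. The 9 genes of these roles were grouped after their values were seen. All 9 were highest in female replicate 2 and in male replicate 1 of their sex, and all 9 were lowest in male replicate 3. Their median deviations from the sex mean were 0.02, 0.53, -0.25 and -0.23 in female replicates 1 to 4 and 0.43, -0.11, -0.54 and 0.29 in male replicates 1 to 4. In the other 30 genes the median deviations were 0.15, 0.08, -0.13 and -0.13 in females and 0.13, -0.04, -0.22 and 0.17 in males. The order of libraries differed between the 2 sets: the other 30 were most often highest in female replicate 1 (17 genes) and male replicate 4 (17 genes). Over all genes tested, the median deviation was at most 0.005 from 0 in any library. The scaling of the libraries largely fixes that median near 0, so its size is not a result.

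The replicate error of these genes was correspondingly large. The median SD of log2 CPM within a sex was 0.264 for the 39 genes and 0.443 for the 9, compared with 0.108 for all genes tested. Of the 39, 36 had a larger SD than the median gene within 0.5 log2 CPM of their own level. The exceptions were Ddx58, Usp18 and Ifi35.

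Markers of immune cells followed these swings in part. The pan-leukocyte sum was 80.4, 77.5, 69.6 and 88.9 CPM in females and 192, 76.0, 66.7 and 82.6 in males. It was highest in male replicate 1 and lowest in male replicate 3, as were the 9 genes, but in females the highest sum was in replicate 4, where the 9 genes were low. Macrophage markers, 7 in number, summed to 395 CPM in male replicate 1 and to 242 to 247 in the other males. In females they were lowest in replicate 2 at 203 against 228 to 232. The macrophage sums did not overlap between the sexes, the highest female being at 232 CPM and the lowest male at 242. All 7 had a positive log2 fold change, male minus female. Of these, 1 was called higher in males (Cd163, named after its values were seen, 0.35, edgeR adjusted p = 0.0436). T cell markers, 6 in number, summed to 3.14 to 5.52 CPM in females and 2.81 to 5.28 in males. All 6 were highest in female replicate 4 and male replicate 2, neither of which was high in the 9 genes. All 6 endothelial markers were highest in female replicate 2, and 4 of them in male replicate 3. All 4 B cell markers were lowest in male replicate 3 (sum 2.72 CPM, against 7.61 to 9.198 in the other males) and in female replicate 3 (5.02 against 6.39 to 14.2). In females all 4 were highest in replicate 4, where the 9 genes were low. All 5 red cell markers were highest in male replicate 1 and lowest in male replicate 3, as the 9 genes were, with male sums of 7630, 5654, 2518 and 3293 CPM. In females they ran the other way, lowest in replicate 2 at 556 CPM, against 2807 to 8805 in the others. The part of these cells in the swings was not tested. With male replicates 1 and 4 both left out, an alternative chosen after seeing the data, Ifi27l2a was called and Ifi27 was not (edgeR adjusted p = 0.0886).

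**Figure D4:**
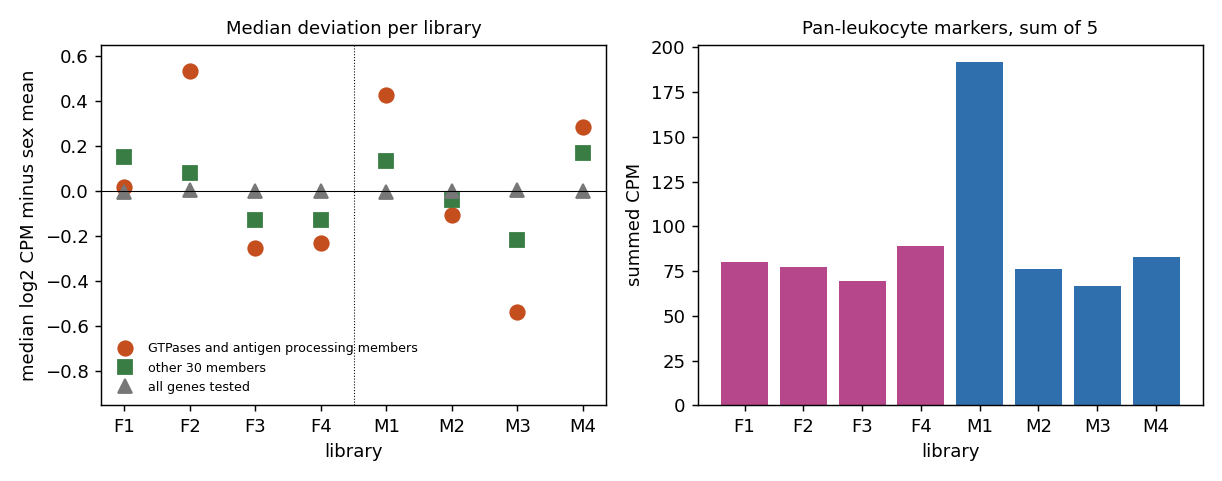
Left, median deviation of log2 CPM from the sex mean in each library for the 9 GTPase and antigen processing genes (circles), the other 30 (squares) and all genes tested (triangles); right, summed CPM of 5 pan-leukocyte markers. The 9 genes run from -0.54 in M3 to 0.53 in F2, while the leukocyte sum is high in M1 (192 CPM) and not in F2 (77.5 CPM).

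The rest of the pathway was read from lists of genes that are not among the 39. No interferon gene passed the filter. Of 10 interferon genes, 9 had 0 counts in all 8 libraries, which allows a level of up to 0.00972 CPM by 3 counts over the libraries, for counting error alone. Ifng, which encodes interferon gamma, had 5 counts in all. None of 6 receptors was called by edgeR (3 at an unadjusted p below 0.05, all higher in males; over all genes tested 19.5% passed, 10.1% as higher in males), the smallest p being that of Ifngr1, a chain of the interferon gamma receptor, at 48.0 ± 3.99 CPM for the female libraries and 54.4 ± 0.306 for the male ones (log2 fold change 0.18, SE 0.05, edgeR adjusted p = 0.0848). None of 5 kinases and STATs was called, with 1 at an unadjusted p below 0.05, Stat3 (-0.12, SE 0.04, edgeR adjusted p = 0.148). Of 7 negative regulators 0 were called, with 2 at an unadjusted p below 0.05, and Irf2, a repressor that competes with IRF1, came nearest (0.21, SE 0.05, edgeR adjusted p = 0.0536). Of 13 tested genes that sense infection upstream of interferon, 0 were called and 3 were at an unadjusted p below 0.05. Tlr7, an X-linked receptor for single-stranded RNA, had the smallest p (0.41, SE 0.12, edgeR adjusted p = 0.0918).

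Further genes of the programme were counted in the same way. Of 39 further interferon-stimulated genes tested, 1 was called, Lgals3bp, which encodes a secreted glycoprotein. It was at 46.4, 39.3, 40.8 and 37.3 CPM in females and at 34.9, 32.9, 32.9 and 36.3 in males, without overlap (log2 fold change -0.26, SE 0.06, edgeR adjusted p = 0.0476). Male replicate 3 was the lowest male in 29 of these 39 genes, female replicate 2 the highest female in 22 and male replicate 4 the highest male in 25. Of 16 further class I presentation genes, 0 were called and 1 had an unadjusted p below 0.05, Calr, an endoplasmic reticulum chaperone (0.13, SE 0.06, edgeR adjusted p = 0.243). Of these 16, 12 were highest in female replicate 2, 11 in male replicate 1, and 13 were lowest in male replicate 3. A pair of genes picked after their values were seen swung widely. Gbp4, another guanylate-binding protein, was at 13.8, 33.5, 11.6 and 10.6 CPM in females and at 25.4, 12.8, 8.55 and 23.9 in males. Nlrc5, the transactivator of class I genes, was at 5.98, 12.3, 4.93 and 4.03 CPM in females and at 11.1, 7.204, 3.75 and 12.4 in males. Both were high in female replicate 2 and male replicates 1 and 4 and lowest of the males in replicate 3.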

How the data were processed

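RNA was sequenced from 8 mouse heart libraries, with Trizol extraction and an Illumina TruSeq kit per the labels' protocols. The authors deposited raw counts for 49315 genes; Trimmomatic 0.36, STAR 2.5.2b, featureCounts of Subread 1.5.2 and GRCm38 (mm10) are named in the submitters' processing notes, without roles. Annotation version, strand setting and multi-mapping are not given in the sources used here. The authors also deposited a normalized signal for 16160 genes, which from the values equals the counts divided by 1 size factor per library (0.863 to 1.196), with 100% of values whole within 0.01 when multiplied back. IDs were matched to symbols for 48970 genes.

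The male minus female contrast was fitted in R 4.3.3 with edgeR 4.0.16 (quasi-likelihood, TMM scaling). Its filterByExpr step asked for a count of 10 and a total of 15 and left 16180 genes, over which p was adjusted, with a threshold of 0.05. Each SE was obtained by dividing the size of the log2 fold change by the square root of F. CPM rest on TMM-scaled totals, and a prior count of 2 was added before logs. The procedure was tested on simulated data. The 39 genes and all lists were chosen with earlier results of these data known. Values per library are given for called genes, the highest per length in each role, the 5 smallest p and the 3 largest ratios of highest to lowest library at a mean of at least 1 CPM. Others are named by role, or stated to be chosen after their values were seen, as Gbp7 also was. Pathway lists name called genes or the smallest p. Alternatives used RLE and upper quartile scaling, no mitochondrial genes, other filters, DESeq2 1.42.0, limma 3.58.1 (voom, and log2 of the deposited signal plus 1), a replicate block, thinning and each library left out. Sequences are from RefSeq, shared windows from GENCODE transcripts.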

Additional observations from a re-analysis of the deposited data

Results flagged for a closer look

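Single libraries far from the other 3 of their sex were sought with Dixon's test for 4 values, which chance passes in about 1 of 20 groups. Of 78 groups of 4 values of the interferon-stimulated genes, 2 passed. Oas3 was at 0.188 CPM in male replicate 3 and at 0.510 to 0.558 in the other males. Gbp7 was at 23.1 CPM in female replicate 2 and at 12.2 to 12.8 in the other females.

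Among summed lists, the further class I presentation genes reached 1490 CPM in female replicate 2, against 1230 to 1270 in the other females. Macrophage markers were at 203 CPM in female replicate 2 (228 to 232 in the others) and at 395 CPM in male replicate 1 (242 to 247). Male replicate 1 also stood apart from the other males in pan-leukocyte markers, at 192 CPM against 66.7 to 82.6. The same held for neutrophil markers, at 5.78 CPM against 1.99 to 2.21, but 4.635 CPM of that was Csf3r. Female replicate 1 reached 5.04 CPM in the neutrophil sum. S100a9, of the same list, was called lower in males (log2 fold change -2.27, edgeR adjusted p = 0.00632), at means of 1.36 CPM in females and 0.28 in males. Lung markers were at 20.1 CPM in female replicate 3, of which Scgb1a1 made up 19.85, and at 0.0597 to 3.04 in the other females.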

How the results depend on the processing

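Of 699 values of single interferon-stimulated genes under the 18 other settings, 652 kept their direction and their side of the threshold, 4 lost the call and 43, in 18 genes, changed direction; the smallest adjusted p among those 43 was 0.618. The cause was not tested. The 4 lost calls were all of Ifi27: without female replicate 2, female replicate 3 or male replicate 3, and in limma on the deposited signal (adjusted p = 0.105). Genes of the 39 called lower in males numbered 1 to 2 with each library left out, 1 in limma on the deposited signal, 1 without male replicates 1 and 4, and 0 with the adipocyte covariate, the last pair being alternatives chosen after seeing the data. Over all genes, those called higher in males numbered 155 to 278 over the leave-one-out fits (212, 193 and 199 when female replicates 1, 2 and 4 were dropped, 155 when male replicate 3 was), 503 without a filter, 551 in DESeq2, 86 in limma on the deposited signal, 127 without male replicates 1 and 4 and 4 with the covariate. Those called lower numbered 155 to 220 (155, 160 and 161 without female replicate 3, male replicate 3 and female replicate 2), 86 in limma on the deposited signal, 90 without both males and 3 with the covariate. The median log2 fold change of the 39 genes was -0.27 without both males and 0.273 with the covariate.

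With each library left out, log2 fold changes ran from -0.011 to 0.089 for Bst2, -0.02 to 0.099 for Cmpk2, -0.146 to 0.131 for Gbp2, -0.347 to 0.126 for Gbp3, -0.067 to 0.379 for Gbp7 and -0.072 to 0.089 for Ifit2. They ran from -0.021 to 0.161 for Ifit3b, -0.096 to 0.045 for Irf9, -0.021 to 0.193 for Irgm1, -0.288 to 0.019 for Isg15, -0.205 to 0.07 for Oas1a and -0.028 to 0.264 for Psmb8. For Psmb9 the range was -0.217 to 0.152, for Rsad2 -0.068 to 0.144, for Rtp4 -0.113 to 0.145, for Stat2 -0.059 to 0.088, for Tap1 -0.153 to 0.295 and for Zbp1 -0.241 to 0.041. Rtp4 was at 0.012 in limma-voom and 0.001 in limma on the deposited signal, and Tap1 at -0.008 after thinning to the smallest total.

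Replicate numbers did not pair the libraries: correlations of deviations between equal numbers were 0.02, -0.02, 0.05 and -0.05. With the replicate block, 2 of the 39 genes were called lower and 0 higher, and 228 of all genes higher and 199 lower. Ifi27 was at -0.41 (edgeR adjusted p = 0.0321) and Ifi27l2a at -0.63 (0.0159) with that block. Genes under 1 CPM, such as Oas3 with 157 counts in all, are limited by depth.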
